A study of Mus musculus with 6 samples.

Results

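Epithelial chloride and bicarbonate transport was followed through 9 genes: the SLC26 anion transporters Slc26a2, Slc26a3 and Slc26a6, the channels Cftr, Best2 and Clcn2, the basolateral carriers Slc12a2 and Slc4a4, and the potassium channel Kcnn4. They are 9 of the 18194 genes that the array annotation names alone on at least 1 probe set, a probe set being a group of short probes that read 1 transcript. All 22 probe sets that name one of the 9 and no other gene were taken, and each gene is led by its probe set of highest mean over all arrays. Every value below is log2 expression or a log2 difference, so 1 unit is a doubling.

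RNA came from the colon of 6 C57BL/6 mice, 6 to 8 weeks old, with 1 array per mouse. All 6 carried PPAR g fl/fl, the floxed gene of the nuclear receptor PPAR gamma, and all 6 received 2.5% dextran sodium sulfate (DSS) in drinking water, which injures the colonic epithelium, and were killed on day 7. The 3 deficient mice were Lysozyme M cre+ and the 3 control littermates were Lysozyme M cre-. The lysozyme M promoter drives Cre mainly in macrophages and neutrophils, so the deletion is aimed at myeloid cells and not at the epithelium that carries most of these transporters. No group went without DSS, and in whole tissue fewer cells of a type and less RNA per cell cannot be told apart.

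Intestinal epithelium moves chloride and bicarbonate in both directions. Surface cells absorb chloride through apical exchangers, chiefly SLC26A3, in return for bicarbonate, and their loss causes chloride-rich diarrhoea. Crypt cells load chloride from the blood side with SLC12A2 (NKCC1) and release it through CFTR, while SLC4A4 (NBCe1) brings in bicarbonate and basolateral potassium channels such as KCNN4 keep up the driving voltage. Inflammation of the colon is known to shift this balance away from absorption.

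The 6 arrays were not of 1 bowel profile, although all are labelled colon. The mean of 14 small intestine enterocyte markers was 11.58 on control replicate 1 and 9.90 on deficient replicate 3, and between 4.64 and 6.43 on the other 4 arrays. The mean of 12 colonocyte and posterior gut markers was 5.01 and 5.59 on those 2 arrays against 6.75 to 7.04 elsewhere. Fabp6, the ileal bile acid binding protein, read 15.32 and 14.49 there and 5.72 to 7.81 on the rest, while the colonocyte carbonic anhydrase Car1 read 2.83 and 7.02 against 13.60 to 15.32. The small intestine list was not uniform on deficient replicate 3. Fabp1 read 4.39 there, within the 3.44 to 6.19 of the other 4 arrays, against 7.54 on control replicate 1. Lct and Slc2a2 lay under log2 4 on every array but control replicate 1. The remaining genes of that list were higher on deficient replicate 3 than on the other 4 arrays, Alpi only narrowly (9.82 against at most 9.67). Nor was the colonocyte list uniform: Mep1a (12.24 and 11.93 against 7.24 to 10.74) and Ceacam20 (10.09 and 11.30 against 9.12 to 9.91) were higher on control replicate 1 and deficient replicate 3. In that list 4 of the 12 genes lay under log2 4 on every array. Control replicate 1 and deficient replicate 3 are called marker-high, so each genotype holds 1 of them. The other 4 are called marker-low. Those 4 were not alike in the colonocyte list, and some of its genes split by genotype in both directions. Hoxd10 read 6.59 and 6.51 on control replicates 2 and 3, and 3.91 and 2.29 on deficient replicates 1 and 2. Hoxa10 read 7.23 and 7.07 against 8.92 and 8.88, and Aqp8 7.03 and 7.62 against 9.26 and 10.55. The part of position along the colon in genotype differences among the marker-low arrays was not tested. The mean of 12 epithelial markers spanned only 12.61 to 13.06, lowest on deficient replicate 2, and Epcam, a surface protein of all gut epithelium, lay between 14.33 and 14.68. Leukocyte markers (11 genes with a probe set) averaged 7.49, 7.00 and 7.10 in controls and 7.80, 8.50 and 7.34 in deficient samples, highest on deficient replicate 2, and 8 of the 9 tested were higher in deficient samples. Among the macrophage markers, 8 of 9 were higher in deficient samples. Of all genes tested, 57.0% were higher. The macrophage marker that was lower, Lyz2, read 12.32, 11.79 and 12.19 in controls and 6.80, 6.24 and 10.39 in deficient samples, without overlap. Pparg itself, which epithelium also expresses, differed by -1.19 (SE 1.73), by -1.22 among the marker-low arrays and by -1.13 between the marker-high ones. Xist, made from the inactive X chromosome of females, was at 12.11 on control replicate 2 and at 2.25, the array floor, on the other 5.

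**Figure D1:**
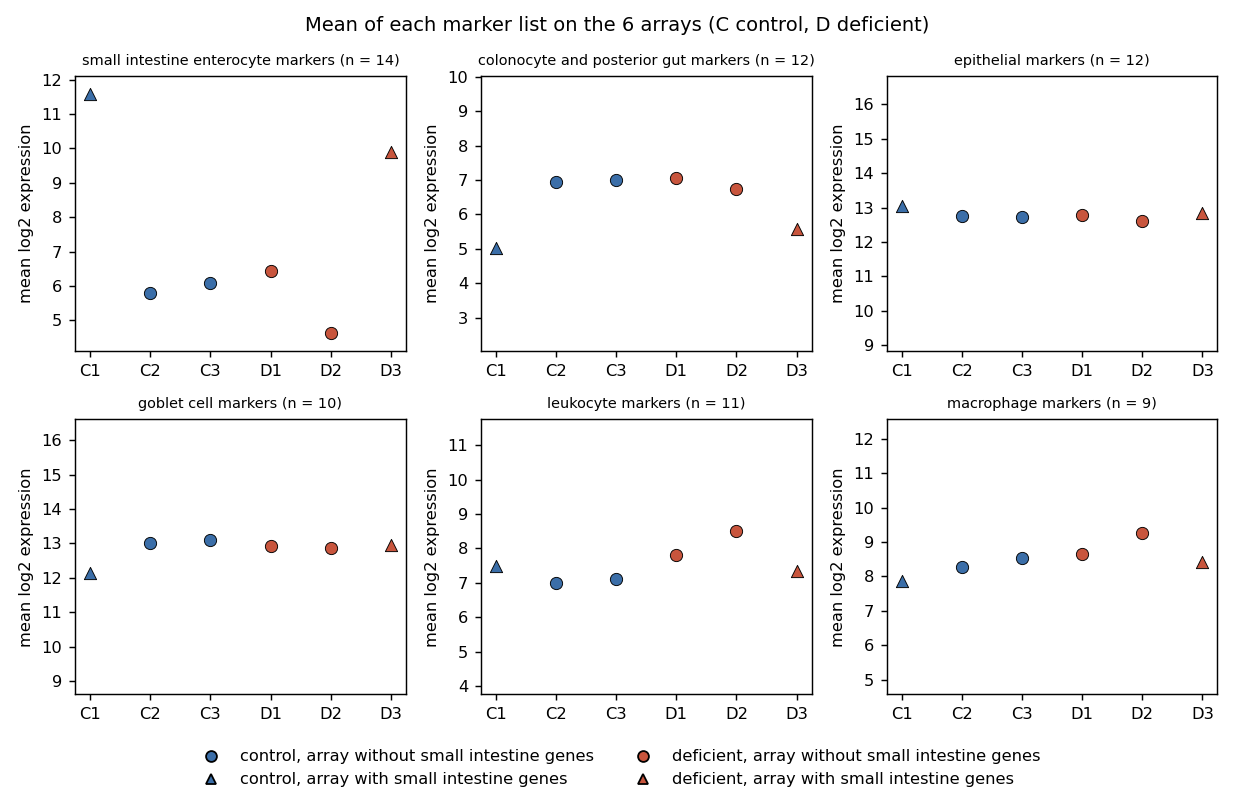
Mean log2 expression of 6 marker lists (vertical axis) on each array (horizontal axis, C control and D deficient with replicate number); triangles are the marker-high arrays, colours are genotypes, and n is the number of genes averaged. The 2 triangles sit at 11.58 and 9.90 for small intestine enterocyte markers, above all circles, while the epithelial list stays within 12.61 to 13.06.

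The 2 apical exchangers of the SLC26 family had unlike patterns over these arrays, and the stretches of DNA before their starts are shown because the same enterocyte surface carries both proteins. Promoter sequence was on hand for 6 of the 9 genes. The 250 bases before the start are given 5′ to 3′ on the plus strand (RefSeq, GRCm38.p6), Slc26a6 from chr9:108853793-108854042 and Slc26a3 from chr12:31437969-31438218. Capitals mark matches to the motifs searched on both strands.
Slc26a6: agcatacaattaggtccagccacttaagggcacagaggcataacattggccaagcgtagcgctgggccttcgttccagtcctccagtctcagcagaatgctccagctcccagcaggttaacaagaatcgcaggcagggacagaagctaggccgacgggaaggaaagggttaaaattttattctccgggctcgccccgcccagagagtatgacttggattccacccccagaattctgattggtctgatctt
Slc26a3: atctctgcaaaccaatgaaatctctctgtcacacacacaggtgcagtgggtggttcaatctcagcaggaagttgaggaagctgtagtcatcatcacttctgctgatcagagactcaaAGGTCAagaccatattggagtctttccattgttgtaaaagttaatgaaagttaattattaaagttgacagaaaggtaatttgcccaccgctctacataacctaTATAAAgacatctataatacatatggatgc

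Slc26a3 held a TATA box (TATAAA), which fixes the start of transcription in many tissue-specific genes, at position -30, and the nuclear receptor core site AGGTCA at position -133. Of 32851 mouse promoter windows of that length, 12.4% held TATAAA and 14% AGGTCA. Among the 6 genes with sequence, TATAAA occurred in Slc26a3 only and AGGTCA in Slc26a3 and Slc4a4. None of the 6 held the PPAR element in its strict form, 2 copies of AGGTCA in 1 direction with 1 base between them, which contains the core site and occurs in 0.0335% of windows. None held the CDX site TTTATNG (9.81% of windows, and able to overlap a TATA box), the GATA site AGATAA (9.99%) or the HNF4 site CAAAGTCCA (0.384%). These letters are a description of the windows only.

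Slc26a6 showed the widest range of the 9 genes, and it followed the bowel profile of the arrays. The protein exchanges chloride for bicarbonate or oxalate at the apical membrane, mainly in small intestine. Its only probe set (1416275_at) read 10.62, 2.54 and 2.53 on control replicates 1 to 3 and 2.25, 2.34 and 10.66 on deficient replicates 1 to 3. It was thus high on both marker-high arrays and at or near the floor on the other 4, a range of 8.41 over the arrays. The group means were 5.23 ± 4.67 (SD, n = 3) in control and 5.08 ± 4.83 (n = 3) in deficient samples. The gene was above log2 4 on only 2 arrays, did not enter the test, and differed by 0.04 between the 2 arrays that expressed it. Of all 18194 genes, 13 (0.0715%) lay above log2 8 on both of these arrays and under 4 on the other 4, limits chosen after the values were seen. Besides Slc26a6 they include Pdzk1, a scaffold that binds apical transporters, at 10.85 and 8.82 there and 2.25 on each of the rest.

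Slc26a3, the main chloride absorber of the colon surface (also known as DRA), was expressed on all 6 arrays and did not pass the test. Its lead probe set (1429467_s_at) read 11.05, 10.78 and 10.34 in controls and 11.58, 11.54 and 10.32 in deficient samples. The 2 marker-low deficient arrays were the highest of the 6 and the other one was the lowest, so the groups overlapped. The means were 10.72 ± 0.36 and 11.15 ± 0.72 (SD, n = 3 each). The difference was 0.43, with a 95% interval from -0.57 to 1.42 and a limma adjusted p of 0.816. The other 2 probe sets above the floor gave 0.61 (1421445_at) and 0.60 (1427547_a_at), and another (1453151_at) was at the floor on every array. On 1421445_at and 1427547_a_at deficient replicate 3 was not the lowest and lay above control replicates 2 and 3.

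Within each bowel profile Slc26a3 differed in opposite directions. Among the 4 marker-low arrays it was higher in deficient samples by 1.0 (limma unadjusted p 0.0117, adjusted p 0.285), and all 3 probe sets above the floor gave 1.0 to 1.16 there. Between the 2 marker-high arrays the difference was -0.73, and -0.37 and -0.53 for the other 2 probe sets above the floor. The interaction of genotype with profile was -1.73 with a limma unadjusted p of 0.0119 and an adjusted p of 0.90, where 5.16% of all genes had an unadjusted p under 0.05. The difference between profiles therefore did not pass over all genes, and the second value rests on 1 array per genotype. Slc26a4 (pendrin), its paralogue on the same chromosome with Cbll1 and Gm40362 between them, was at 2.25 on all 6 arrays.

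Slc26a2, a sulfate transporter that supplies sulfate for mucin and matrix, did not pass the test. Its lead probe set (1443882_at) read 11.71, 12.34 and 12.06 in controls and 11.90, 11.34 and 11.58 in deficient samples. Deficient replicate 2 was lowest and the groups overlapped through deficient replicate 1. The difference was -0.43 (95% interval -1.02 to 0.17, limma adjusted p 0.719), and its 3 probe sets gave -0.43 to -0.36.

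**Figure D2:**
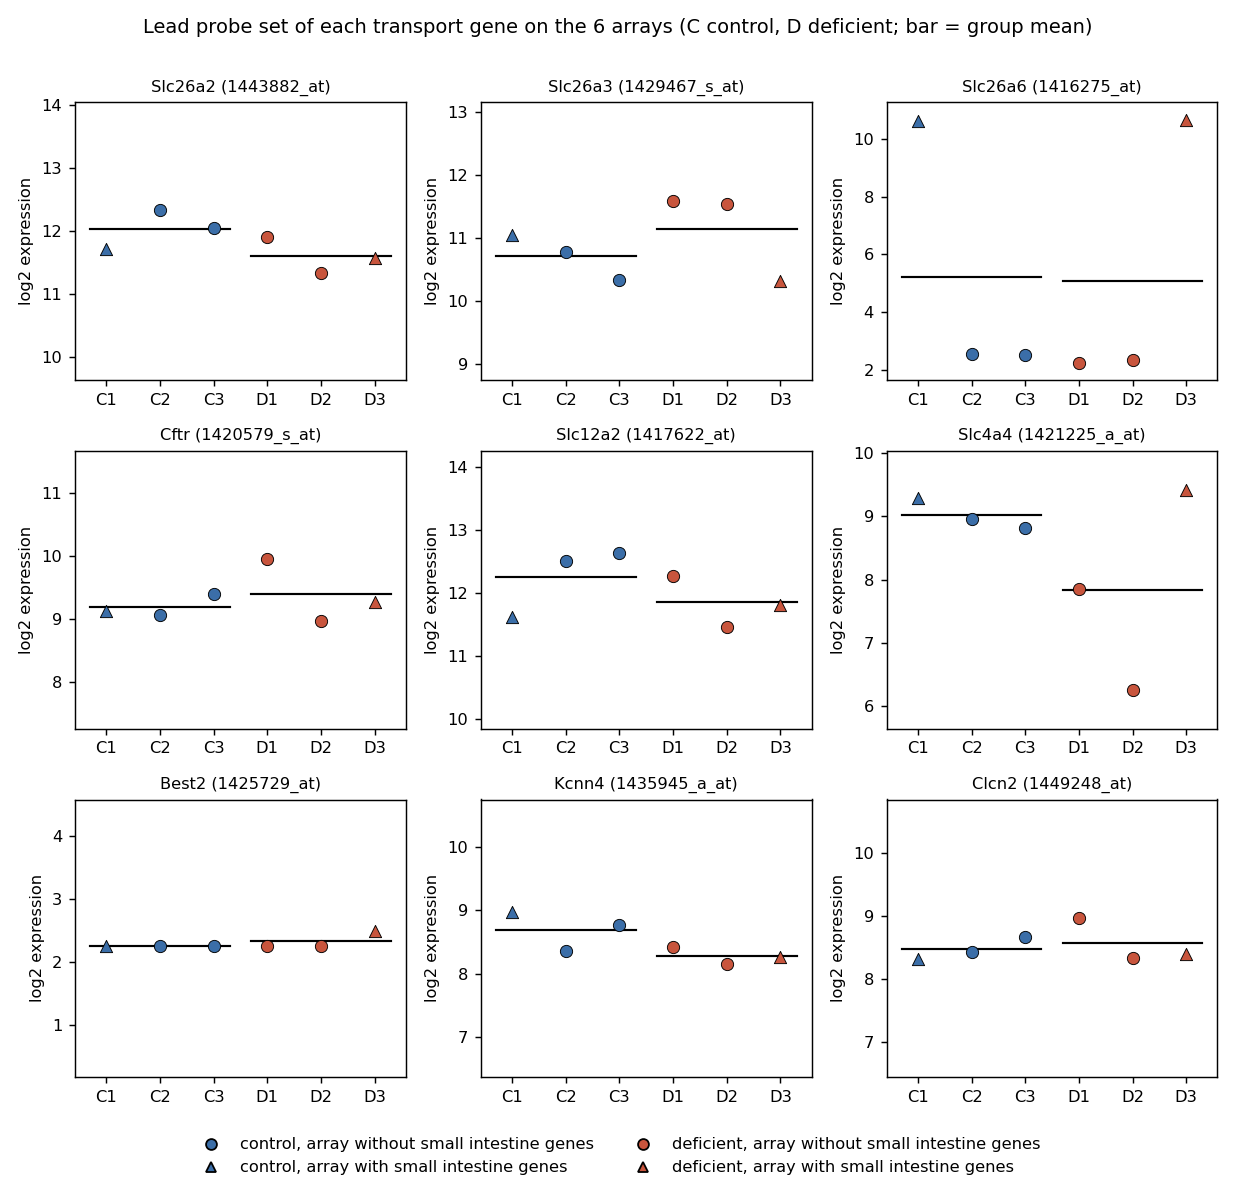
Log2 expression of the lead probe set of each of the 9 genes (vertical axis, own range per panel) on the 6 arrays (C control, D deficient), with bars at group means and triangles for the marker-high arrays. Slc26a6 stands at 10.62 and 10.66 on the triangles and at 2.25 to 2.54 elsewhere, Slc4a4 is lowest on D2 at 6.25, and Best2 lies at the floor throughout.

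Among the apical and chloride channels, Cftr and Clcn2 were close in both genotypes. Cftr, the cyclic AMP-gated channel of crypt chloride and bicarbonate secretion, read 9.13, 9.06 and 9.40 in controls and 9.96, 8.98 and 9.28 in deficient samples (1420579_s_at). Deficient replicate 1 was the highest array and deficient replicate 2 the lowest. The difference was 0.21 (95% interval -0.50 to 0.92, limma adjusted p 0.878), and it was -0.070 without deficient replicate 1. A second probe set (1427767_a_at) was at the floor on all arrays, between 2.27 and 2.36.

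Clcn2, the voltage-gated channel ClC-2 of epithelial membranes, read 8.32, 8.43 and 8.67 in controls and 8.97, 8.33 and 8.40 in deficient samples (1449248_at). It differed by 0.10 (95% interval -0.47 to 0.66, limma adjusted p 0.938), and by -0.10 without deficient replicate 1. Cftr and Clcn2 had the closest pair of profiles among the 7 tested genes, with a root mean square difference of 0.13 over the 6 arrays once each was centred on its own mean. The measure is not scaled, so genes that vary little over the arrays lie close more easily. Both were highest on deficient replicate 1.

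Best2, a bicarbonate channel of colonic goblet cells, gave no reading above the floor. Its single probe set (1425729_at) read 2.26 on 5 arrays and 2.50 on deficient replicate 3. The goblet mucin Muc2, by contrast, lay between 13.42 and 15.49, and all 10 goblet markers passed the filter on low values. A probe set at the floor sets no level for the transcript, so Best2 was not compared.

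The basolateral loaders were lower on average in deficient samples, with wide spread. Slc12a2, the sodium potassium chloride cotransporter of crypt cells, read 11.63, 12.50 and 12.64 in controls and 12.27, 11.46 and 11.81 in deficient samples (1417622_at). The lowest values were those of deficient replicate 2 and of control replicate 1, and the groups overlapped. The difference was -0.41 (95% interval -1.28 to 0.46, limma adjusted p 0.796), and its 3 probe sets gave -0.51 to -0.41. It was -0.72 without control replicate 1 and -0.21 without control replicate 3 or deficient replicate 2. Among the marker-low arrays it was -0.70, and between the marker-high arrays 0.19.

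Slc4a4, the sodium bicarbonate cotransporter NBCe1, had the largest genotype difference of the 7 tested genes and the largest error. Its lead probe set (1421225_a_at) read 9.30, 8.95 and 8.82 in controls and 7.85, 6.25 and 9.42 in deficient samples. Both marker-low deficient arrays lay below every control, and the marker-high one was the highest of all 6. The means were 9.02 ± 0.25 and 7.84 ± 1.58 (SD, n = 3 each). The difference was -1.18, with a 95% interval from -3.10 to 0.74 and a limma adjusted p of 0.746. It was -0.39 without deficient replicate 2 and -1.97 without deficient replicate 3.

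Among the 4 marker-low arrays Slc4a4 differed by -1.83 (limma unadjusted p 0.0314, adjusted p 0.328), and between the other 2 arrays by 0.13. Its 4 probe sets above the floor ranged from -1.18 to -0.55 over all arrays, and each was lowest on deficient replicate 2 and highest on deficient replicate 3. Among the marker-low arrays they ranged from -1.83 to -0.95. On 1452071_at deficient replicate 1 (7.58) lay above control replicates 2 and 3 (7.56 and 7.23). The interaction with profile was 1.96 with a limma adjusted p of 0.936. Slc4a4 and Slc26a3 were the 2 of 7 genes with an unadjusted p under 0.05 among the marker-low arrays, against 13.9% of all genes.

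Kcnn4, the calcium-activated potassium channel KCa3.1, had the smallest p of the 7 tested genes but did not pass. Its lead probe set (1435945_a_at) read 8.97, 8.35 and 8.76 in controls and 8.42, 8.14 and 8.26 in deficient samples. Only control replicate 2 and deficient replicate 1 overlapped. The difference was -0.42 (95% interval -0.95 to 0.10, limma adjusted p 0.703). The second probe set (1421038_a_at) read 7.93, 7.68 and 7.33 against 7.23, 6.85 and 7.24, with no overlap and a difference of -0.54 (limma adjusted p 0.698 with each probe set tested on its own). It was the only 1 of the 17 probe sets of these genes above the filter whose groups did not overlap, where 4.16% of all probe sets were separated in the same direction.

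The channel is also found in T cells, macrophages and red cells. Leukocyte markers as a list ran the other way, with a median difference of 1.15 over the 9 tested. The T cell gene Cd3g did not, at 6.31, 4.51 and 4.51 in controls and 4.51, 3.95 and 4.51 in deficient samples. Cd3e and Cd2 did not pass the filter on low values. The 4 erythroid markers with a probe set lay under log2 4 on every array. The part of any of these cells in the Kcnn4 values was not tested. Kcnn4 was lower in deficient samples in both profiles, with -0.28 among the marker-low arrays and -0.72 between the marker-high ones.

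**Figure D3:**
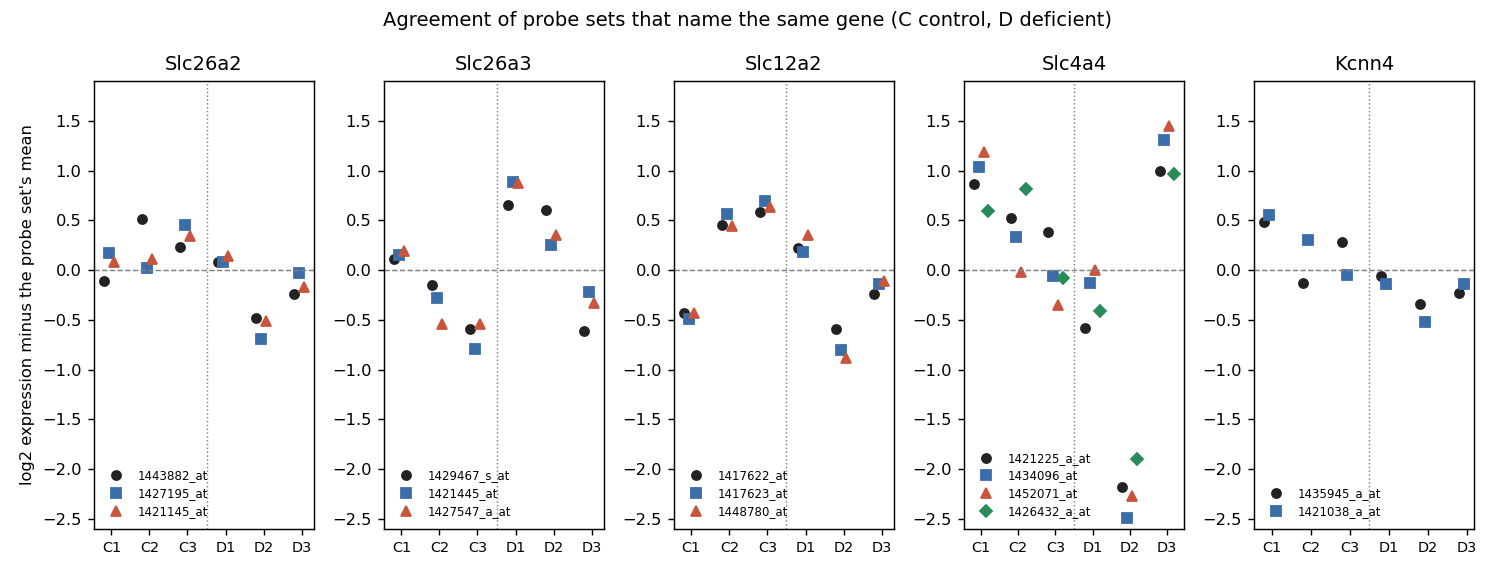
Log2 expression minus the mean of each probe set (vertical axis) on the 6 arrays (C control, D deficient) for the 5 genes with more than 1 probe set above the filter; each symbol is a probe set, offset sideways to keep points apart. The 4 probe sets of Slc4a4 drop together on D2, and the 3 of Slc12a2 are low on both C1 and D2.

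Over the list, no gene was called. In the limma fit over 10491 genes, 0 of the 7 tested genes passed an adjusted p under 0.05 and 0 had an unadjusted p under 0.05, against 0 (0%) and 7.46% of all genes. Groups did not overlap for 0 of the 7 in either direction. Of all 10491 genes, 982 were separated as higher and 435 (4.15%) as lower in deficient samples. Of the 7, 3 were higher in deficient samples, 42.9% against 57.0% of all genes, and the median difference was -0.41 against 0.06. Only 1 was higher without deficient replicate 1, where Cftr and Clcn2 turned. With 1 array left out the median ran from -0.50 to -0.21, the last of these without deficient replicate 2 and without control replicate 3.

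Deficient replicate 2 was the lowest of the 6 arrays for 5 of the 7 tested genes (Slc26a2, Cftr, Slc12a2, Slc4a4 and Kcnn4), whereas it was lowest for 18.1% of all genes. The same array had the highest leukocyte mean (8.50), the lowest epithelial mean (12.61) and the lowest small intestine mean (4.64). Their part in these values was not tested.

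**Figure D4:**
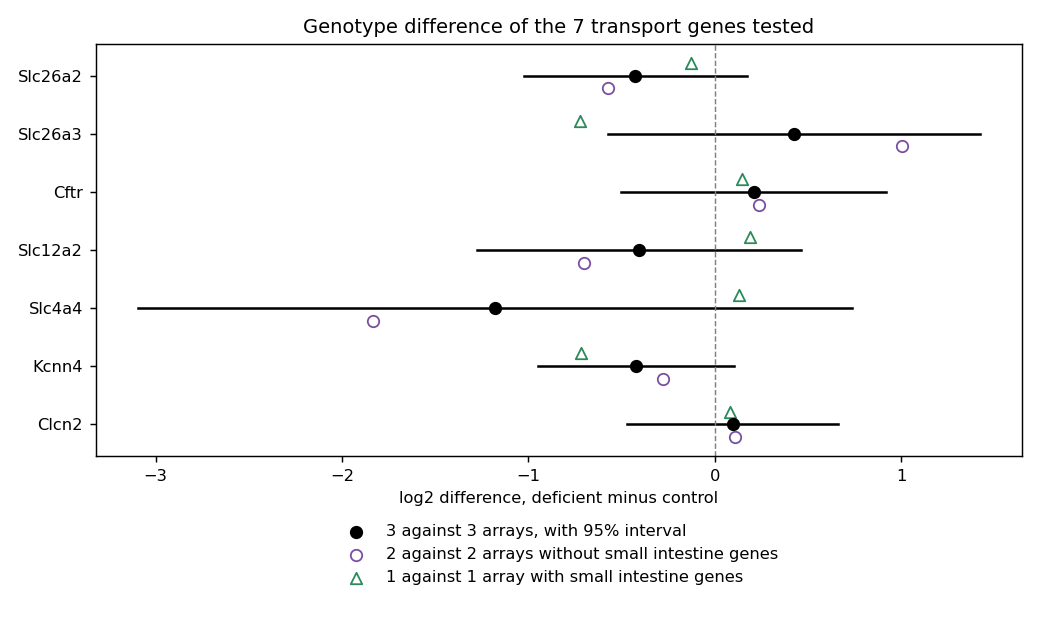
Log2 difference, deficient minus control (horizontal axis), of the 7 tested genes: black points and bars are the fit over 3 against 3 arrays with its 95% interval, open circles the 4 marker-low arrays and open triangles the 2 marker-high arrays. Every interval crosses 0, and circle and triangle lie on opposite sides of 0 for Slc26a3, Slc12a2 and Slc4a4.

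The rest of the ion transport machinery was read from a list of 84 genes, of which 77 had a probe set and 53 were tested. None passed an adjusted p under 0.05 in limma, 20 were higher (37.7%, against 57.0% of all genes) and 33 lower in deficient samples, and the median difference was -0.07 against 0.06. An unadjusted p under 0.05 was found for 1 higher and 1 lower gene of the 53, where 7.46% of all genes had one. The 2 were Kcnmb1, an accessory subunit of the large-conductance potassium channel, at 0.94, and Ano10, of the anoctamin family, at -0.65 (limma adjusted p 0.667 and 0.664). Ano10 read 8.09, 8.54 and 8.44 in controls and 7.91, 7.81 and 7.40 in deficient samples, 1 of 2 genes among the 53 whose groups were separated as lower, against 4.15% of all genes. The other was Kcnq1, a basolateral potassium channel partner of cyclic AMP-driven secretion, at -1.11 (limma adjusted p 0.718), named after its values were seen. Kcnq1 read 8.04, 7.93 and 8.33 in controls and 7.79, 5.56 and 7.62 in deficient samples, with deficient replicate 2 far below the other 5 arrays.

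The lower genes of smallest p after Ano10 were Gucy2c, Prkg2 and Slc9a2, none of which passed (limma adjusted p 0.673, 0.682 and 0.686). Slc9a2, an apical sodium hydrogen exchanger of the gut, differed by -0.87 over all arrays, and Slc9a3, another apical exchanger of this kind, by 0.16. Among the marker-low arrays both were lower in deficient samples, Slc9a2 by -0.98 and Slc9a3 by -1.01. Between the marker-high arrays, a single array per genotype, Slc9a2 differed by -0.67 and Slc9a3 by 2.50. Gucy2c, the receptor for guanylin and heat-stable enterotoxin, differed by -0.66, and Prkg2, the kinase downstream of it that acts on CFTR, by -1.87. Prkg2 read 8.47, 10.44 and 10.27 in controls and 8.43, 6.40 and 8.74 in deficient samples, so deficient replicate 2 was again lowest. Among the marker-low arrays Gucy2c differed by -1.08 and Prkg2 by -2.94, and between the marker-high arrays by 0.16 and 0.28.

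The higher genes of smallest p after Kcnmb1 were 3 of the calcium-activated chloride channel regulators, and none passed (limma adjusted p 0.686 to 0.714). Clca4b differed by 3.40, Clca4a by 2.10 and Clca3a1 by 0.58. Clca4a read 12.41, 8.58 and 8.63 in controls and 11.17, 12.47 and 12.27 in deficient samples, so the only high control was the marker-high one. Among the marker-low arrays Clca4b differed by 4.68 and Clca4a by 3.22, and between the marker-high arrays by 0.85 and -0.14. Another regulator, the goblet product Clca1, differed by -0.07, at 13.63 ± 0.26 in control and 13.56 ± 0.56 in deficient samples (SD, n = 3 each).

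The 4 brightest genes of the list, Atp1b1, Clca1, Ezr and Slc9a3r1, had differences of -0.46 to -0.07. Atp1b1, a subunit of the sodium pump that powers all of these carriers, lay within 13.40 to 13.89. Slc9a3r1 (NHERF1) and Ezr (ezrin), which tether CFTR and exchangers to the apical cytoskeleton, followed profile, with Slc9a3r1 at 13.41 and 13.01 on the marker-high arrays and 11.04 to 11.17 on the others. Ezr read 13.23 and 12.29 on the marker-high arrays and 11.56 to 11.97 on the others. Both adaptors were thus higher on the marker-high arrays, as Slc26a6 was, but by much less and from a level above the floor.

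**Figure D5:**
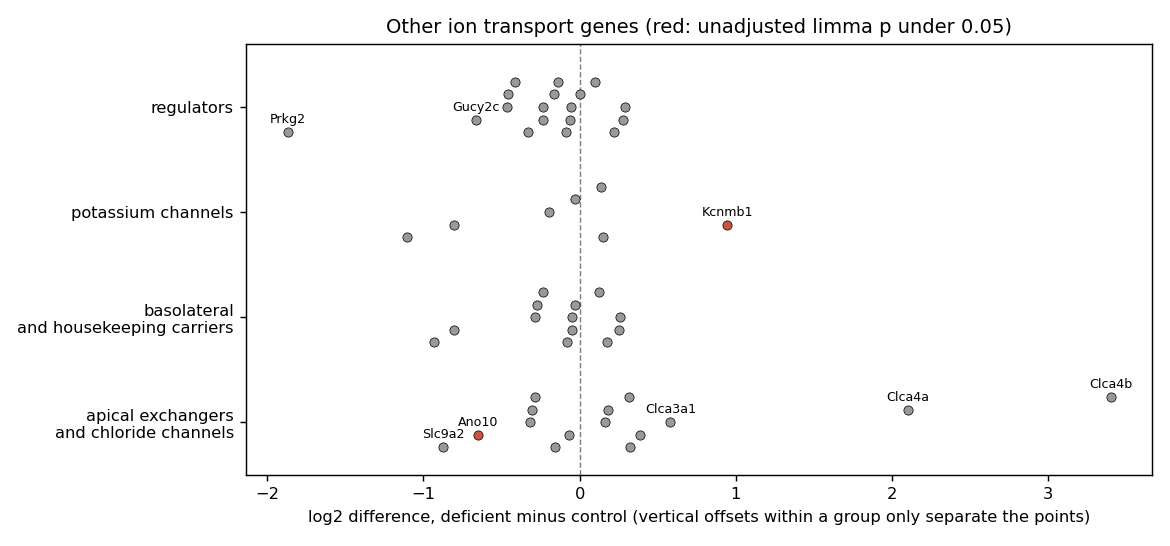
Log2 difference, deficient minus control (horizontal axis), of the 53 other ion transport genes tested, in 4 groups by role; each point is a gene, and red marks an unadjusted limma p under 0.05. Clca4b and Clca4a lie farthest right at 3.40 and 2.10 and Prkg2 farthest left at -1.87, none of them red.

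Each tested gene was also set beside all others to find the 2 with the closest profile, by root mean square log2 difference over the 6 arrays after centring. For Slc26a2 these were Adcy6 (0.05) and Pik3r1 (0.07). Adcy6, an adenylyl cyclase of the cyclic AMP pathway, is itself on the ion transport list, at -0.46. Slc12a2 had Galnt7, a mucin-type glycosyltransferase (0.07), and Art3 (0.08), Kcnn4 had Cast (0.07) and Ankrd46 (0.08), and Clcn2 had Cldn23, a claudin (0.05), and Galk2 (0.06). Nearest to Cftr were Vezt and Obi1 (0.06 and 0.07). Vezt lay near the filter limit, at 3.77 on control replicates 1 and 2 and deficient replicate 2 and at most 4.67. No gene came as close to Slc26a3, led by Creb3l2 (0.16) and Pcgf5 (0.18), or to Slc4a4, led by Vav2 (0.23) and Casq2 (0.24). The measure is not scaled and tends to grow with a gene's own range, which was 3.17 for Slc4a4 and 0.65 for Clcn2. Its size therefore does not rank how well patterns match between genes. For Slc26a6, compared with all 18194 genes after its values were seen, the closest were the cholesterol transporter Npc1l1 (0.26) and the chylomicron assembly gene Mttp (0.46), both of small intestine enterocytes.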

How the data were processed

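The authors deposited log2 values, 1 for each probe set on each array, and the submitters' processing notes name GCRMA; its version and settings were not found in those notes or the labels. GCRMA subtracts modelled background, so many unbound probe sets lie at a floor near 2.25 and differences close to it are compressed. Some probe sets instead repeated a higher value over several arrays, such as 3.04 for Slc4a1 and 4.69 for Slc9a8. The latter passed the filter, so the filter does not remove every such probe set. With 3 arrays a group, precision is limited by their number.

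Probe sets naming 1 gene and above log2 4 on at least 3 of 6 arrays were kept (17031), and each gene was represented by its brightest kept probe set (10491 genes). The 2 genotypes were set against each other by lmFit and eBayes of limma 3.58.1 (R 4.3.3), two-sided and without covariates. P-values were adjusted by Benjamini-Hochberg over all genes, and the procedure was tested on simulated data. Promoter letters were searched with Python 3.11.15. The labels call the arrays biological replicates.

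The genes, lists and bowel profiles were chosen with earlier results of these data known. Named from the other transport genes were the 4 of smallest p per direction and the 4 brightest, and for each tested gene the 2 of closest profile. Slc26a4, Pdzk1, Kcnq1, Pparg, Xist and the single array markers were named after their values were seen. Alternatives covered filter, normalization, probe set choice, floor, eBayes options, blocks and left-out arrays. The epithelial scaling, the interaction and the closest genes of Slc26a6 were added after the data were examined.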

Additional observations from a re-analysis of the deposited data

How the results depend on the processing

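The 7 tested genes were refitted under 18 other settings and relative to the epithelial mean, the last chosen after seeing the data, 131 values in all. Adjusted p-values ran from 0.141 to 0.990, so no gene was called in any of them, nor was any of the other ion transport genes. In 129 the direction was that of the 3 against 3 comparison. The filter, floor, eBayes and block settings returned the same difference for each of the 7 genes. Their agreement in direction was therefore fixed and adds nothing to that count's weight. The epithelial scaling moves every gene's difference by the same amount and could turn none of the 7, so it does not bear on how far their values follow the epithelial share. The exceptions came without deficient replicate 1, where Cftr and Clcn2 turned. In fits without 1 array, Cftr ran from -0.070 to 0.42, Clcn2 from -0.10 to 0.21, and the number of the 7 genes higher in deficient samples from 1 to 3. Slc26a3 ran from 0.21 to 0.84, Slc4a4 from -1.97 to -0.39, Slc12a2 from -0.72 to -0.21, Slc26a2 from -0.59 to -0.28 and Kcnn4 from -0.60 to -0.28. With array weights Slc26a3 differed by 0.99 (limma unadjusted p 0.0113, adjusted p 0.141). Under that setting 2132 of all 10491 genes had a limma unadjusted p under 0.05, against 783 in the main fit. The untested Slc26a6 moved from -2.94 to 2.55 with the array left out. The replicate block left each difference as it was (Slc4a4 -1.18), with 0 of 7 genes past the threshold. Same-numbered arrays correlated at -0.54, 0.36 and -0.61 in their deviations from group means. Control replicate 1 and deficient replicate 3, both marker-high, correlated at 0.69. The deviations thus followed bowel profile and cannot show whether the numbers pair the mice. Without suffixed probe sets Cftr and Kcnn4 could not be tested.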
